A study of Mus musculus with 24 samples.

Results

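The enzymes that turn arachidonic acid into prostaglandins and leukotrienes, and the enzyme that breaks prostaglandins down, were followed in mouse bone marrow-derived macrophages (BMDMs) through 9 genes: Pla2g4a, Ptgs1, Ptgs2, Ptges, Hpgds, Hpgd, Alox5ap, Alox5 and Ltc4s. They are 9 of the 18740 genes listed in at least one library, and all 9 were listed in both M1 and M2 BMDMs. The genes were chosen by name and function with FPKM results of these same libraries already known, and no record says which comparison brought each one in. The values and calls below are therefore a description of each gene, and nothing is read from how many of the 9 passed a threshold.

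The 24 RNA-seq libraries came from BMDMs of wild-type (WT) mice and of mice without the dopamine receptor gene Drd5 (DRD5-/-), all C57BL/6 and 10 weeks old. The M1 stimulus was 100 ng/ml LPS plus 50 ng/ml IFN-γ and the M2 stimulus IL-4 plus IL-13 at 10 ng/ml each, both for 12 h. Within each stimulus the cells were untreated or treated with dopamine (DA, 20 μM), which made 8 groups of 3 libraries. There was no unstimulated group, so every untreated control carried LPS and IFN-γ or IL-4 and IL-13. By the study's methods the cells were marrow of tibias and femurs grown in L929 conditioned medium, which holds the macrophage growth factor M-CSF, whereas one label names the colon as the source. The sources do not say whether the 3 libraries of a group were separate mice or separate cultures, so p-values measure only the spread between these libraries. The DRD5-/- label could not be checked, because Drd5 was not listed in M1 and was at 0 in 10 of the 12 M2 libraries. It was at 0.06 FPKM in an untreated WT and at 0.03 FPKM in a DA-treated WT library. The other M2 WT libraries and every M2 DRD5-/- library were at 0.

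Arachidonic acid is cut from membrane phospholipid by cytosolic phospholipase A2 (Pla2g4a). The cyclooxygenases Ptgs1, made at a steady level in many cells, and Ptgs2, induced in inflammation, turn it into the precursor PGH2. Ptges then makes PGE2 and Hpgds makes PGD2, and Hpgd inactivates prostaglandins by oxidation. In the leukotriene arm, Alox5 (5-lipoxygenase) works with its membrane partner Alox5ap (FLAP) to form LTA4, which Ltc4s joins to glutathione to give LTC4. Classical activation of macrophages is known for Ptgs2, Ptges and PGE2, and many of these lipids signal through receptors that change cyclic AMP, as dopamine receptors do.

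Upstream sequences are shown for 6 genes because their FPKM differed most between groups: Hpgd, Ptges and Ltc4s, which fell with DA in M2 WT BMDMs, Pla2g4a, which rose, and the cyclooxygenase pair, which had opposite levels in M1 and M2. Each is the 250 bases before a RefSeq transcription start on GRCm38.p6, printed 5′ to 3′ on the gene's strand, with capitals marking motif letters found by search. RefSeq promoters were matched for 8 of the 9 genes, and Alox5ap was not among them. For Hpgd, Ltc4s, Pla2g4a and Ptgs2 this start is the edge of the gene's RefSeq span given further on, whereas for Ptgs1 it lies 13684 and for Ptges 27723 bases inside the span, at an internal start. For Pla2g4a, which has 2 starts in the table, the outer one is shown.
Hpgd, chr8:56294302-56294551, plus strand: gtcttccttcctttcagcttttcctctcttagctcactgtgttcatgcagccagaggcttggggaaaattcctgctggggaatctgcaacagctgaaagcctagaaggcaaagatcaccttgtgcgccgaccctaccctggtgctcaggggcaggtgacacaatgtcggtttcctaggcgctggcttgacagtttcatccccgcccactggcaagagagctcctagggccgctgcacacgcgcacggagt
Ptges, chr2:30903298-30903547, minus strand: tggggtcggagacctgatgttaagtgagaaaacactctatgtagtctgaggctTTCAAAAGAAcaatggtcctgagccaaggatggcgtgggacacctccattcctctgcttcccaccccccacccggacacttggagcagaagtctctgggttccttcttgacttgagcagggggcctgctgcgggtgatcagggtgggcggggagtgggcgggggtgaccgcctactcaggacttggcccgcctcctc
Ltc4s, chr11:50238533-50238782, minus strand: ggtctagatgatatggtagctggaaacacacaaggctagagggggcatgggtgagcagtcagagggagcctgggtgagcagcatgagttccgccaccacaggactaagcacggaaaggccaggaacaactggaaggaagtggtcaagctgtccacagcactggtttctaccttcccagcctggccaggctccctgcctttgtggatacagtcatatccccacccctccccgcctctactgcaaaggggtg
Pla2g4a, chr1:149961291-149961540, minus strand: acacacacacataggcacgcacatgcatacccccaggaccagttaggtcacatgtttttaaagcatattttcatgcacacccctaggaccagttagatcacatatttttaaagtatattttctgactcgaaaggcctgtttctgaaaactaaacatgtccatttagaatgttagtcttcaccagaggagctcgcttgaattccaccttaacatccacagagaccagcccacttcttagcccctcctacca
Ptgs1, chr2:36230176-36230425, plus strand: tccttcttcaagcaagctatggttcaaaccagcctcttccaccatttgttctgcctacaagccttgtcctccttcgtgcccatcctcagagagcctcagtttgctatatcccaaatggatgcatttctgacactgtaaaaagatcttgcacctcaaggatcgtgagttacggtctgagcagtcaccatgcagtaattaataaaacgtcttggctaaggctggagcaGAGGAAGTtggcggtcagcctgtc
Ptgs2, chr1:150099781-150100030, plus strand: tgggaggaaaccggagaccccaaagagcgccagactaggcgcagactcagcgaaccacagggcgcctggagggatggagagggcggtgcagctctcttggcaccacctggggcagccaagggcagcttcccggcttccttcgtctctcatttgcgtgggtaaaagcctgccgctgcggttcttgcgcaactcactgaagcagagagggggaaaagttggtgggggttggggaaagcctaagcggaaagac

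The motifs, picked after these windows had been read, were searched on both strands. They were the CRE half-site TGACG, present in 17.8% of 32851 upstream windows of the same length, the full CRE TGACGTCA (1.55%) and the AP-1 motif TGANTCA (6.75%). The others were the STAT6 motif, TTC and GAA with 4 bases between them (5.85%), the kappa-B motif (3.9%), the letters TTGCNNCAA (1.74%) and the PU.1 core GAGGAAGT (2.44%). The letters TTGCNNCAA are longer than the C/EBP palindrome TTGCGCAA and do not match it, so C/EBP sites were not searched. Every full CRE also counts as a half-site. Among the 6 printed windows, Ptges held the STAT6 letters TTCAAAAGAA at 197 to 188 bases before its internal start, and Ptgs1 held the PU.1 core at 24 to 17 bases before its internal start. The Hpgd, Ltc4s, Pla2g4a and Ptgs2 windows held none of the letters searched. The Ptgs2 window does hold the palindrome ttgcgcaa, which was not among them and is not in capitals. Of the windows not printed, Alox5 held none. Hpgds held a match to TTGCNNCAA at 223 to 215 and a PU.1 core at 49 to 42 bases before its start. That start lies 251 bases inside its span. The matches are a description of letters, and no binding was measured here. The bases after the RefSeq start of Hpgd lie in no GENCODE M21 transcript, so the window may not border the start used in these cells.

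Values are FPKM, fragments scaled by transcript length and by the library's mapped fragments, so levels can be compared between genes. The deposited tables held no counts and the depth of each library is unknown. Library sums of FPKM lay between 476187 and 503799, and 9774 to 10444 genes a library reached 1 FPKM. Each stimulus was fitted with limma on log2(FPKM + 1), and a gene was called at a Benjamini-Hochberg adjusted p under 0.001 over all genes tested together with a change of at least 1.2-fold, the study's own cutoff. Log2 changes below are on this log2(FPKM + 1) scale, which understates the change of genes with few FPKM. The filter of 1 FPKM in at least 3 libraries kept 5 of the 9 genes in M1 (Pla2g4a, Ptgs2, Ptges, Hpgds and Alox5ap) and 8 in M2, where Alox5 alone was left out. The 6 macrophage markers, led by Lyz2, summed to between 6629 and 11136 FPKM in every library. M1 and M2 levels are given side by side without a test, because the stimuli may have been sequenced and normalized apart, so that stimulus and run cannot be told apart. In bulk RNA, fewer cells of a type and less RNA per cell cannot be told apart either.

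**Figure D1:**
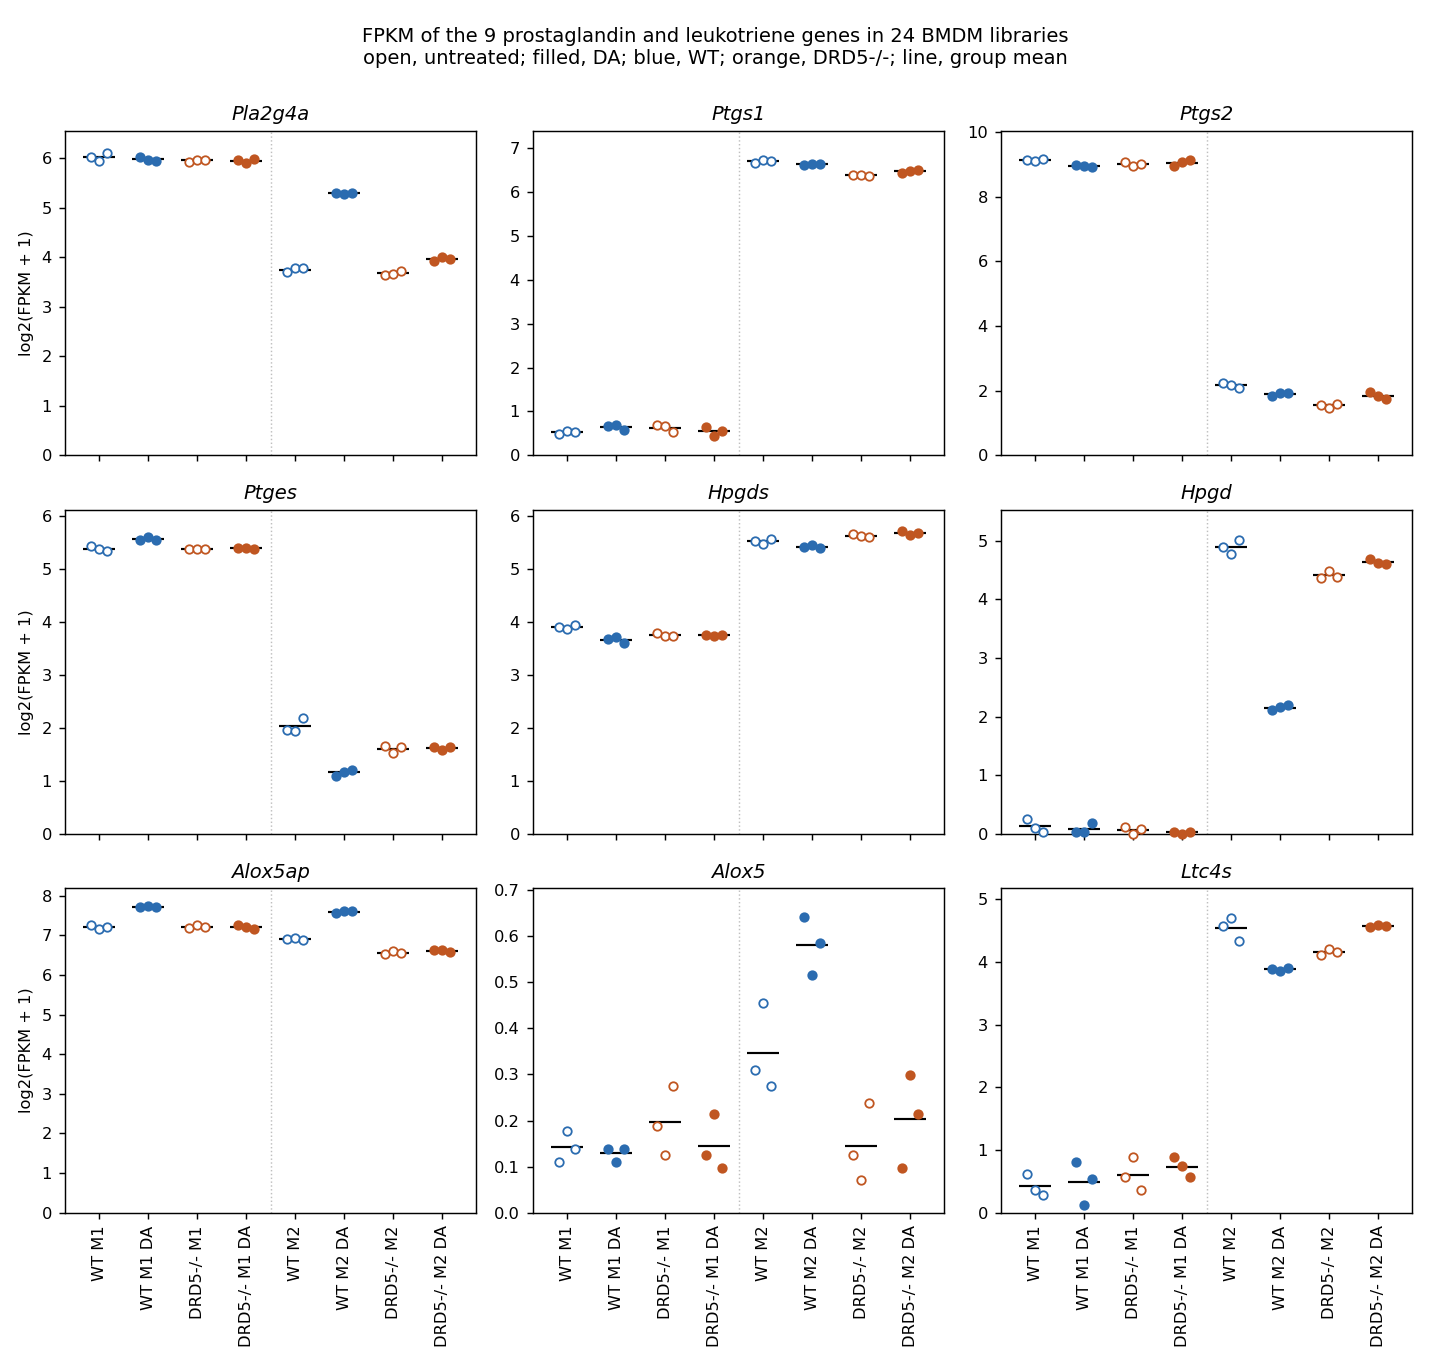
Each panel plots log2(FPKM + 1) of one gene (vertical axis, its own scale from 0) in the 8 groups (horizontal axis), with a point per library, open for untreated and filled for DA, blue for WT and orange for DRD5-/-, and a line at the group mean. Hpgd in DA-treated M2 WT BMDMs (3.31 to 3.58 FPKM) stands below the 9 other M2 libraries (19.52 to 31.36 FPKM), Ptgs1 and Ptgs2 take opposite sides in M1 and M2, and Alox5 stays under 0.6 FPKM everywhere.

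The phospholipase Pla2g4a (chromosome 1, 149829618 to 149961290) rose about 3-fold with DA in M2 WT BMDMs and did not change past the threshold in M1 BMDMs. In untreated M2 WT BMDMs it was at 11.96, 12.68 and 12.75 FPKM, and with DA at 38.21, 37.81 and 38.3 FPKM. In M2 DRD5-/- BMDMs it was at 11.44, 11.71 and 12.17 FPKM untreated and 14.25, 15.13 and 14.64 FPKM with DA. The 3 DA-treated WT libraries lay above all other M2 libraries, and the DA-treated DRD5-/- libraries lay above both untreated groups without overlap. The log2 change with DA was 1.54 (SE 0.0359, adjusted p = 8.94e-14, limma) in WT and 0.30 (SE 0.0359, adjusted p = 5.56e-05) in DRD5-/- BMDMs, and these changes differed by 1.24 (SE 0.0508, adjusted p = 6.6e-11). In M1 BMDMs the 12 libraries lay between 59.23 and 68.34 FPKM, with all 4 groups overlapping. The DA change in M1 WT BMDMs was −0.05 (95% interval −0.13 to 0.03), and its sign turned under another scaling. Between the stimuli the DA changes in WT BMDMs differed by 1.59 (SE 0.0527, adjusted p = 4.52e-17, limma over all 24 libraries). With DA, the WT M2 mean of 38.1 FPKM stood between the untreated M2 mean of 12.5 and the M1 means of 61 to 64.3 FPKM.

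The cyclooxygenases had opposite levels in the 2 stimuli. Ptgs1 (chromosome 2, 36216742 to 36258593) was at 0.36 to 0.62 FPKM in all M1 libraries and at 81.93 to 105.26 FPKM in all M2 libraries. Ptgs2 (chromosome 1, 150100031 to 150108234) was at 480.89 to 576.92 FPKM in M1 and at 1.76 to 3.75 FPKM in M2. Within a library, Ptgs2 exceeded Ptgs1 by 803 to 1485 times in M1, and Ptgs1 exceeded Ptgs2 by 26.9 to 47.4 times in M2. The M1 ratios rest on Ptgs1 values under 1 FPKM, where the 2 printed decimals leave few digits.

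Neither cyclooxygenase passed the threshold with DA in either genotype where it was tested. Ptgs1 was under the filter in M1 and was tested in M2 alone, with log2 changes of −0.07 in WT and 0.09 in DRD5-/- BMDMs. Ptgs2 in M1 WT BMDMs was at 561.54, 547.63 and 576.92 FPKM untreated and at 502.71, 498.01 and 480.89 FPKM with DA. The groups did not overlap, but the log2 change of −0.19 (SE 0.045, adjusted p = 0.00373) missed both parts of the threshold. Over the alternatives the change ran from −0.20 to −0.11, with a limma adjusted p up to 0.0525. In M1 DRD5-/- BMDMs Ptgs2 was at 539.46, 490.44 and 516.92 FPKM untreated and at 491.87, 534.48 and 566.02 FPKM with DA, and these groups overlapped. In M2 BMDMs Ptgs2 was at 3.75, 3.48 and 3.25 FPKM in untreated WT and at 2.54, 2.8 and 2.77 FPKM in DA-treated WT. It was at 1.97, 1.76 and 2.02 FPKM in untreated DRD5-/- and at 2.9, 2.58 and 2.33 FPKM in DA-treated DRD5-/- BMDMs. The DA changes of −0.28 in WT (adjusted p = 0.00221) and 0.30 in DRD5-/- BMDMs (adjusted p = 0.00458) missed the threshold singly, whereas the difference between them passed it (−0.58, SE 0.0972, adjusted p = 0.000111).

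Without DA, both cyclooxygenases were lower in M2 DRD5-/- than in M2 WT BMDMs. Ptgs1 was at 100.89, 105.26 and 104.66 FPKM in WT and at 83.26, 83.39 and 81.93 FPKM in DRD5-/- BMDMs, a log2 difference of −0.32 (SE 0.0251, adjusted p = 5.41e-07). Ptgs2, from the values above, differed by −0.62 (SE 0.0687, adjusted p = 1.46e-05). With DA, Ptgs1 was at 97.17, 98.61 and 99.7 FPKM in WT and at 86.35, 89 and 90.26 FPKM in DRD5-/- BMDMs, a difference of −0.15 that stayed under 1.2-fold. The 4 M2 group means of Ptgs1 ran from 104 in untreated WT through 98.5 in DA-treated WT and 88.5 in DA-treated DRD5-/- to 82.9 FPKM in untreated DRD5-/- BMDMs, and no neighbours in this order overlapped. The summed FPKM of the 5 fibroblast markers, none at 0 in any M2 library, ran in the same order. It was 125 to 127 in untreated WT, 102 to 103 in DA-treated WT, 86.2 to 87.5 in DA-treated DRD5-/- and 78.6 to 80.7 in untreated DRD5-/- BMDMs. Dcn, the highest of these markers, had another order. Its means were 75.1 in untreated WT, 49.4 in DA-treated DRD5-/-, 43.3 in DA-treated WT and 42.5 FPKM in untreated DRD5-/- BMDMs. The 4 platelet markers summed to at most 2.8 FPKM in M2. The part of either cell type in the Ptgs1 levels was not tested.

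The synthases of PGE2 and PGD2 were also distributed oppositely between the stimuli. Ptges (chromosome 2, 30889471 to 30931020) was at 39.59 to 47.45 FPKM in M1 and at 1.14 to 3.56 FPKM in M2, whereas Hpgds (chromosome 6, 65117293 to 65144981) was at 11.18 to 14.45 FPKM in M1 and at 41.26 to 51.73 FPKM in M2. Ptges fell with DA in M2 WT BMDMs, from 2.87, 2.84 and 3.56 FPKM to 1.14, 1.25 and 1.32 FPKM, with no overlap. The log2 change was −0.87 (SE 0.0726, adjusted p = 7.39e-08), or 2.5-fold in mean FPKM. Ptges in M2 DRD5-/- BMDMs was at 2.18, 1.87 and 2.12 FPKM untreated and at 2.12, 1.99 and 2.11 FPKM with DA, so the groups overlapped, and the 95% interval of the change was −0.15 to 0.17. The difference between the genotypes was −0.88 (SE 0.103, adjusted p = 3.74e-06).

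In M1 WT BMDMs Ptges was at 42.09, 40.28 and 39.59 FPKM untreated and at 45.89, 47.45 and 45.77 FPKM with DA. The groups did not overlap and the adjusted p was 0.000138, but the log2 change of 0.19 (SE 0.0295) was under 1.2-fold and Ptges was not called. The 6 M1 DRD5-/- libraries lay between 40.48 and 40.98 FPKM. Between the stimuli the DA changes of Ptges in WT BMDMs differed by −1.05 (SE 0.074, adjusted p = 2.39e-11), with a value above 0 in M1 and below 0 in M2.

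Hpgds showed the opposite sign to Ptges in M1 WT BMDMs and no call for any comparison. It was at 13.95, 13.64 and 14.45 FPKM untreated and at 11.84, 12.09 and 11.18 FPKM with DA. The log2 change of −0.24 (SE 0.04, adjusted p = 0.000198) lay just under 1.2-fold. It was called once 1 library, replicate 2 of the DA-treated M1 WT group, was left out. Over all alternatives the change ran from −0.26 to −0.17, with a limma adjusted p up to 0.00276. The 6 M1 DRD5-/- libraries lay between 12.27 and 12.88 FPKM. In M2 BMDMs Hpgds was at 45.39, 43.2 and 46.28 FPKM in untreated WT and at 41.4, 42.73 and 41.26 FPKM in DA-treated WT. It was at 49.38, 48.22 and 47.54 FPKM in untreated DRD5-/- and at 51.73, 48.66 and 50.05 FPKM in DA-treated DRD5-/- BMDMs. All DRD5-/- libraries were above all WT libraries. The difference between genotypes with DA, 0.26 (SE 0.0322, adjusted p = 5.03e-06), was also just under 1.2-fold and was called with median-of-ratios scaling, and without replicate 2 of either DA-treated M2 group. The 9 mast cell and basophil markers, a cell class known for Hpgds and Ltc4s, summed to at most 0.45 FPKM in any library, with 5 of the 9 listed in M1 and 3 in M2 and none above 0.27 FPKM.

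Set against each other within a library, Ptges exceeded Hpgds by 2.74 to 3.02 times in untreated and 3.88 to 4.09 times in DA-treated M1 WT BMDMs. In the M1 DRD5-/- groups it did so by 3.15 to 3.3 and 3.25 to 3.31 times. In M2 the order was turned: Hpgds exceeded Ptges by 13 to 15.8 times in untreated and 31.3 to 36.3 times in DA-treated WT BMDMs. The M2 DRD5-/- libraries had ratios of 22.4 to 25.8 untreated and 23.7 to 24.5 with DA. The DA-treated WT libraries thus stood apart in both stimuli, with a higher share of Ptges in M1 and a lower share in M2. The untreated WT libraries stood apart as well, on the other side, so that in each stimulus the DRD5-/- libraries lay between the WT groups. These ratios carry no test of their own.

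**Figure D2:**
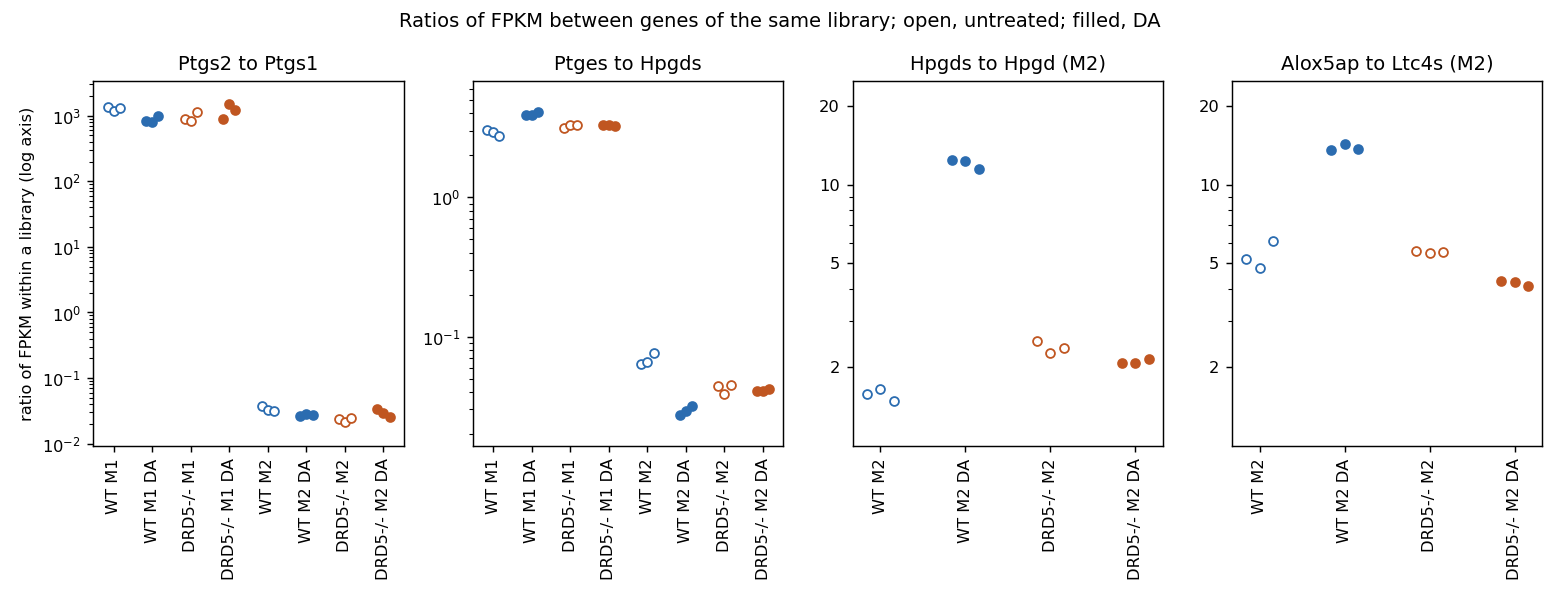
Ratios of FPKM between 2 genes of the same library are plotted on a log vertical axis for each group (horizontal axis), with a point per library, open for untreated and filled for DA, blue for WT and orange for DRD5-/-. Ptgs2 to Ptgs1 lies above 800 in M1 and under 0.04 in M2, and Hpgds to Hpgd is 11.5 to 12.5 in DA-treated M2 WT BMDMs against 1.48 to 2.53 in the other M2 groups.

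Hpgd (chromosome 8, 56294552 to 56321046), which inactivates prostaglandins, had the largest DA change of the 8 enzyme genes tested in M2. In M2 WT BMDMs it fell from 28.81, 26.22 and 31.36 FPKM to 3.31, 3.48 and 3.58 FPKM, 8.33-fold in the means of 28.8 ± 2.57 and 3.46 ± 0.137 FPKM (SD, n = 3). In M2 DRD5-/- BMDMs it was at 19.52, 21.38 and 19.95 FPKM untreated and at 24.9, 23.56 and 23.29 FPKM with DA. The 2 WT groups were far apart, and the DA-treated DRD5-/- libraries lay above the untreated DRD5-/- libraries, the other way round. The log2 change was −2.74 (SE 0.0563, adjusted p = 2.45e-14, limma) in WT and 0.23 (SE 0.0563, adjusted p = 0.00761) in DRD5-/- BMDMs, where it missed the threshold. The difference between the genotypes was −2.97 (SE 0.0796, adjusted p = 1.16e-12). Without DA, Hpgd was lower in DRD5-/- than in WT BMDMs by a log2 difference of −0.48 (SE 0.0563, adjusted p = 2.5e-05). In M1 BMDMs Hpgd was at 0 to 0.19 FPKM in every library and was not tested. A fall with DA in M1 could not have been seen at this level, and the DA-treated M1 WT libraries stayed at 0.03 to 0.14 FPKM. The difference of −2.69 between the stimuli (SE 0.0904, limma over all 24 libraries) thus repeats the M2 fall and is no comparison of its own. Within a library, Hpgds exceeded Hpgd by 1.48 to 1.65 times in untreated and 11.5 to 12.5 times in DA-treated M2 WT BMDMs, against 2.26 to 2.53 and 2.07 to 2.15 times in the DRD5-/- groups. The DA-treated M2 WT libraries also had a lower sum of the 6 macrophage markers (8261 to 8299 FPKM, against 10525 to 11136 in the other M2 groups). The mean of Lyz2, the highest of them, was 4753 FPKM there, against 6799 in untreated WT. It was 6864 in untreated and 7166 FPKM in DA-treated DRD5-/- BMDMs. In DA-treated M2 WT BMDMs the 3 epithelial markers had a higher sum (16.8 to 17.2 against 1 to 2.24). Of these, Cdh1 was at 0.97 to 17.2 FPKM in M2, and Epcam and Krt8 were at most 0.03 FPKM. The part of these in the fall of Hpgd was not tested.

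Alox5ap (chromosome 5, 149265004 to 149288153), the partner of 5-lipoxygenase, was called with DA in both M1 and M2 WT BMDMs, the only one of the 5 genes tested in both. In M1 WT BMDMs it rose from 150.77, 142.16 and 146.95 FPKM to 207.98, 211.28 and 208.93 FPKM. In M2 WT BMDMs it rose from 118.42, 120.02 and 117.72 FPKM to 187.5, 194.16 and 193.31 FPKM. The log2 changes were 0.51 (SE 0.0314, adjusted p = 1.05e-08) and 0.69 (SE 0.026, adjusted p = 1.27e-11), and neither pair of groups overlapped. The difference of 0.17 between them (SE 0.0406, adjusted p = 0.000645) was under 1.2-fold. In M1 DRD5-/- BMDMs Alox5ap was at 143.31, 151.43 and 145.99 FPKM untreated and at 151.46, 145.91 and 141.33 FPKM with DA, a change of −0.01 (95% interval −0.07 to 0.06). In M2 DRD5-/- BMDMs it was at 91.07, 95.49 and 93.38 FPKM untreated and at 97.06, 98.5 and 93.8 FPKM with DA, a change of 0.05 (95% interval −0.01 to 0.10). The genotypes differed in the DA change by 0.52 in M1 (SE 0.0443, adjusted p = 9.18e-07) and by 0.64 in M2 (SE 0.0368, adjusted p = 2.24e-09). Without DA the genotypes differed in M2 (−0.34, SE 0.026, adjusted p = 3.85e-07), while in M1 the 95% interval of the difference was −0.06 to 0.07.

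In M1 WT BMDMs the 8 neutrophil markers, led by S100a8, moved the same way: they summed to 44.7 to 56.6 FPKM untreated and 63.7 to 83.1 FPKM with DA, and all 8 were listed in M1. Over the 12 M1 libraries S100a8 was at 13.8 to 43.4, S100a9 at 0.4 to 21, Ngp at 0 to 12.4, Camp at 0.09 to 4.23 and Ltf at 0 to 2.53 FPKM, while Ly6g and Mpo were at most 0.33 and 0.08 FPKM and Elane was at 0 in all 12. In the M1 DRD5-/- groups the markers summed to 14.6 to 18.2 FPKM untreated and 17.3 to 20.1 FPKM with DA. In M2 the same markers summed to at most 1.51 FPKM. Alox5ap is also a gene of neutrophils, and the part of these markers in its M1 rise was not tested.

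Alox5 (chromosome 6, 116410071 to 116461178) itself was at 0.07 to 0.21 FPKM in M1 and at 0.05 to 0.56 FPKM in M2, so no library reached 1 FPKM. In M2 WT BMDMs it was at 0.24, 0.37 and 0.21 FPKM untreated and at 0.56, 0.43 and 0.5 FPKM with DA. In M2 DRD5-/- BMDMs it was at 0.09, 0.05 and 0.18 FPKM untreated and at 0.07, 0.23 and 0.16 FPKM with DA. The DA-treated WT libraries were above the other 9 M2 libraries, all at levels under the filter. With no filter, Alox5 was not called for DA in either genotype (WT change 0.23, adjusted p = 0.00954), and it was called between the genotypes with DA (−0.38, adjusted p = 0.000377). Alox5ap exceeded Alox5 by 324 to 2641 times within a library.

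Ltc4s (chromosome 11, 50236461 to 50238532), the LTC4 synthase, had called DA changes of opposite sign in the 2 genotypes of M2 BMDMs. In WT it fell from 22.79, 25 and 19.29 FPKM to 13.82, 13.56 and 14.07 FPKM, and in DRD5-/- BMDMs it rose from 16.38, 17.49 and 16.94 FPKM to 22.7, 23.22 and 22.84 FPKM. Neither pair of groups overlapped, and the DA-treated DRD5-/- libraries lay within the range of untreated WT. The log2 changes were −0.65 (SE 0.065, adjusted p = 5.05e-07) and 0.42 (SE 0.065, adjusted p = 0.000358), and they differed by −1.07 (SE 0.0919, adjusted p = 1.59e-07). The call of the rise in DRD5-/- BMDMs was ended by 8 of 19 alternatives, among them leaving out any 1 of its 6 libraries, with adjusted p up to 0.00219. Without DA, Ltc4s was lower in DRD5-/- than in WT BMDMs (−0.37, SE 0.065, adjusted p = 0.000766), a call that 16 of 19 alternatives ended, 11 of the 12 left-out libraries among them (adjusted p up to 0.00748), all but replicate 3 of untreated M2 WT. In M1 BMDMs it was at 0.09 to 0.86 FPKM and was not tested. Alox5ap exceeded Ltc4s by 4.8 to 6.1 times in untreated and 13.6 to 14.3 times in DA-treated M2 WT BMDMs, and by 5.46 to 5.56 and 4.11 to 4.28 times in the DRD5-/- groups.

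**Figure D3:**
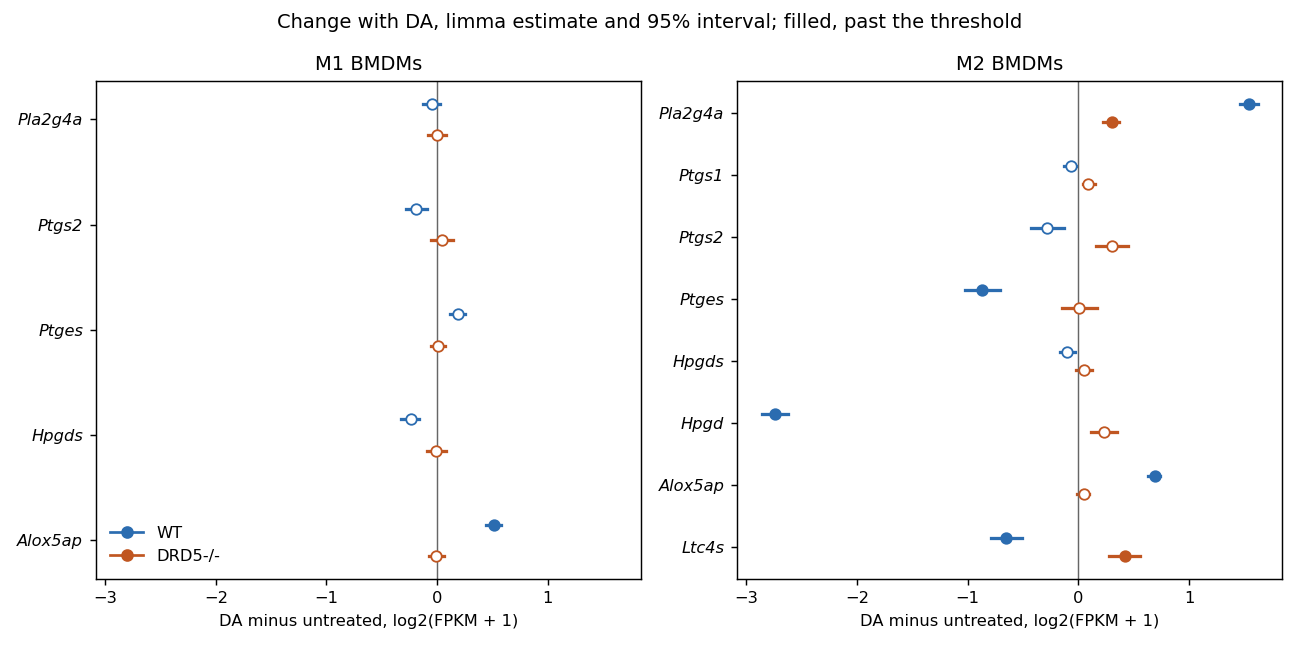
The change with DA (horizontal axis, DA minus untreated on the log2(FPKM + 1) scale) is plotted with its 95% limma interval for each tested gene (vertical axis), in M1 (left) and M2 (right) BMDMs, blue for WT and orange for DRD5-/-, with filled points past the threshold. In M2 WT BMDMs Hpgd lies at −2.74 and Pla2g4a at 1.54, while the DRD5-/- points of all tested genes lie between −0.01 and 0.42.

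Counted over the tested genes, DA in M1 WT BMDMs called 1 of 5 (Alox5ap, higher), against 14.3% of the 10040 genes tested (4.73% higher and 9.6% lower). The median log2 change was −0.050 over the 5 and −0.067 over all genes. With median-of-ratios scaling the genes called in this comparison went from 1439 to 1216 and the share of them that was higher from 33% to 55.7%, with Alox5ap still called. DA in M1 DRD5-/- BMDMs called 0 of 5 and 0% of all genes by limma, with 569 genes at an unadjusted p under 0.05 and no other tool run. DA in M2 WT BMDMs called 5 of 8 (Pla2g4a and Alox5ap higher, and Hpgd, Ptges and Ltc4s lower), against 46.3% of 10735 genes (25.9% higher and 20.4% lower), so called genes were common in this comparison. DA in M2 DRD5-/- BMDMs called 2 of 8 (Ltc4s and Pla2g4a, both higher), against 4.02% of all genes, of which 83.8% were higher, or 69.7% after rescaling.

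The loss of DRD5 in untreated M1 BMDMs called 0 of 5 genes, against 0.936% of all genes by limma, where 2557 genes had an unadjusted p under 0.05. In untreated M2 BMDMs it called 6 of 8, all lower in DRD5-/- (Ptgs2, Hpgd, Ptges, Ltc4s, Alox5ap and Ptgs1), against 5.51% of all genes. Of those called genes 24.8% were higher in DRD5-/-, or 40.2% after rescaling. The call of Ptges in this comparison (−0.42, SE 0.0726, adjusted p = 0.000783) was also ended by 16 of 19 alternatives, leaving out any 1 of the 12 libraries among them (adjusted p up to 0.00582). In DA-treated M1 BMDMs 1 of 5 was called (Alox5ap, lower in DRD5-/- by a log2 difference of −0.52, SE 0.0314, adjusted p = 8.02e-09), against 18.5% of all genes, of which 67.9% were higher, or 47.5% after rescaling. In DA-treated M2 BMDMs 5 of 8 were called (Hpgd, Ltc4s and Ptges higher and Pla2g4a and Alox5ap lower in DRD5-/-), against 49.7%. The largest of these was Hpgd, 6.92-fold higher in mean FPKM, with a log2 difference of 2.48 (SE 0.0563, adjusted p = 5.72e-14).

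The difference in DA change between the genotypes was called for 1 of 5 genes in M1 (Alox5ap), against 8.38% of all genes, of which 38.2% were positive, or 63.8% after rescaling. In M2 it was called for 6 of 8 (Pla2g4a, Ptgs2, Ptges, Hpgd, Alox5ap and Ltc4s), against 43.2% of all genes. The difference in DA change between the stimuli in WT BMDMs was called for 2 of the 5 genes that passed the filter in both (Pla2g4a and Ptges), against 45.9% of the 11148 genes tested. That share also covers genes that passed the filter through 1 stimulus alone, so the shares are not strictly alike. Hpgd, Ptgs1 and Ltc4s entered that fit through M2 alone and were under 1 FPKM in all M1 libraries, so the call of Hpgd is left out of this count. These comparisons share libraries, so their calls are not independent of each other.

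The rest of the eicosanoid pathway was followed in a list of 84 other genes, 78 of them listed in both stimuli. With DA in M1 WT BMDMs 10 of 37 tested were called, 8 higher and 2 lower, against 14.3% of all genes (4.73% higher and 9.6% lower), with a median log2 change of 0.059 against −0.067 over all genes. The rises were led by Ptgr1, a reductase that takes prostaglandin and LTB4 breakdown further, from 42.6 to 86.8 FPKM (log2 change 1.01, SE 0.0429, adjusted p = 2.57e-10). Mgst2, which can also make LTC4, followed with 0.987 and 2.8 FPKM (0.92, SE 0.128, adjusted p = 4.44e-05), and the LTB4 receptor Ltb4r1 with 1.29 and 3.31 FPKM (0.91, SE 0.0775, adjusted p = 3.02e-07). The falls were those of the phospholipase Pla2g16 (93.9 and 67.1 FPKM) and of Ptges3 (50.3 and 40 FPKM), a cytosolic PGE synthase that is also a co-chaperone. The call of Ptges3 was lost with median-of-ratios scaling (−0.25, under 1.2-fold). In M1 DRD5-/- BMDMs 0 of 37 were called with DA, against 0% of all genes (569 at an unadjusted p under 0.05).

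With DA in M2 WT BMDMs 28 of 40 tested pathway genes were called, 14 higher and 14 lower, against 46.3% of all genes (25.9% higher and 20.4% lower), with a median log2 change of −0.109 against 0.031 over all genes. Cyp4f18, a P450 that breaks down LTB4, fell from 13 to 2.24 FPKM (log2 change −2.12, SE 0.089, adjusted p = 3.84e-11). The epoxide hydrolase Ephx1 fell from 50.8 to 15.2 FPKM (−1.68, SE 0.0279), and the monoacylglycerol lipase Mgll from 35.4 to 11.4 FPKM (−1.56, SE 0.0321). The secreted phospholipase Pla2g5 rose from 1.48 to 4.82 FPKM (1.23, SE 0.106), the LTC4 exporter Abcc1 from 13 to 26.2 FPKM (0.96, SE 0.0325), and Ltb4r1 from 0.613 to 1.97 FPKM (0.89, SE 0.128). In M2, Ltb4r1 reached 1 FPKM only in the DA-treated WT libraries, at 2.21, 2.13 and 1.56 FPKM. It thus passed the filter only through the group where it was high, and nothing is read from its M2 calls. Among the phospholipase and related lipase genes 4 were higher and 4 lower, and the 5 tested synthases downstream of the cyclooxygenases in this list were called, 3 higher and 2 lower, beside Ptges, called lower, and Hpgds, not called. Of the same 40 genes, DA called 3 in M2 DRD5-/- BMDMs, against 4.02% of all genes: Abcc1 (0.48) and the prostaglandin reductase gene Zadh2 (0.40) were higher and Mgll (−0.41) lower.

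**Figure D4:**
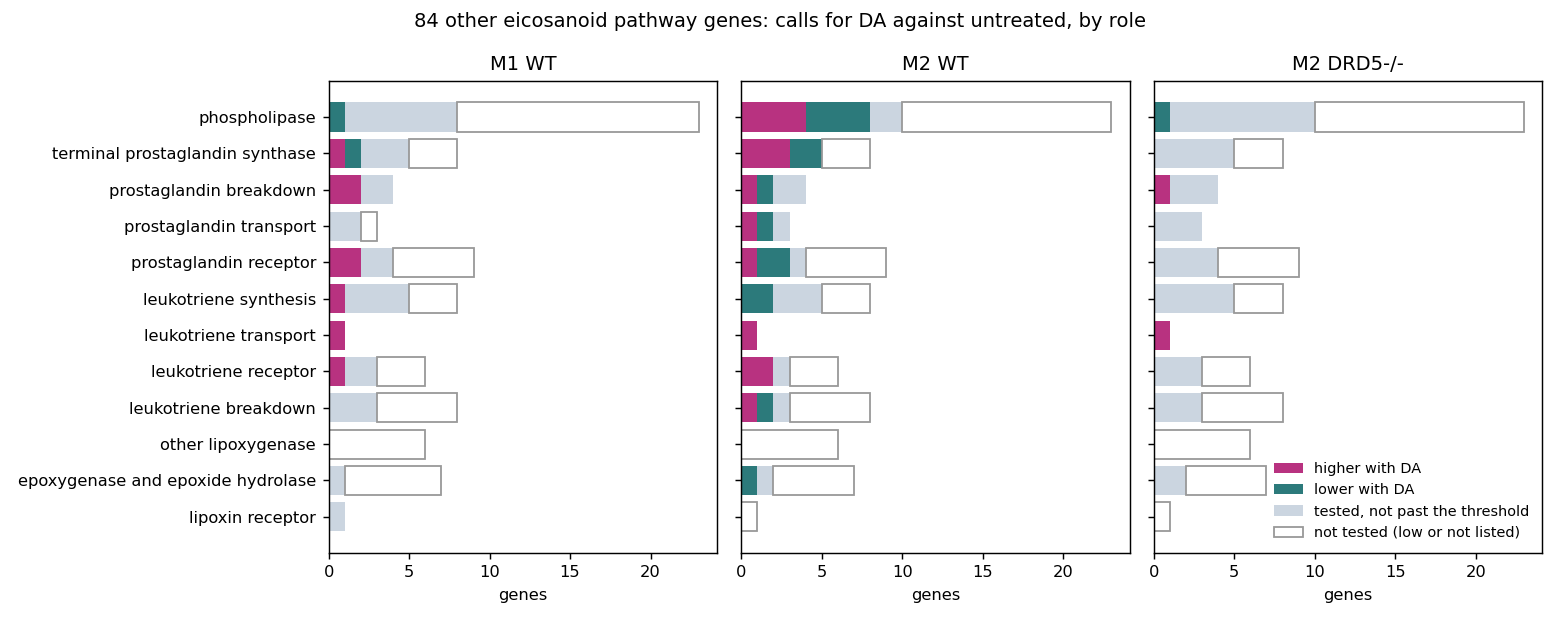
Stacked bars give the number of genes (horizontal axis) in each role of the 84-gene pathway list (vertical axis) that were called higher or lower with DA, tested without a call, or not tested, in M1 WT, M2 WT and M2 DRD5-/- BMDMs. Calls number 10 in M1 WT, 28 in M2 WT and 3 in M2 DRD5-/- BMDMs, and no other lipoxygenase passed the filter.

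Between the genotypes without DA, 0 of 37 pathway genes were called in M1, against 0.936% of all genes, and 4 of 40 in M2, against 5.51%. In M2, Mgll was higher in DRD5-/- (35.4 FPKM in WT and 71.1 FPKM in DRD5-/-), and the prostaglandin transporter gene Slco3a1 (−0.54), the platelet-activating factor hydrolase gene Pla2g7 (−0.47) and the prostacyclin receptor gene Ptgir (−0.34) were lower. The call of Ptgir was ended by 7 of 19 alternatives, leaving out any 1 of the 6 compared libraries among them (adjusted p up to 0.00174). With DA, 11 of 37 were called in M1, against 18.5% of all genes, and 29 of 40 in M2, against 49.7%. In M1, Ptgr1 (−1.13), Ltb4r1 (−0.91) and Mgst2 (−0.68) were lower in DRD5-/- and Ptges3 (0.34), Pla2g15 (0.31) and Pla2g16 (0.30), both phospholipases, higher. Of these calls, 7 of 19 alternatives ended that of Mgst2, 9 of 19 that of Pla2g16 and 1, median-of-ratios scaling, that of Pla2g15. In M2, Mgll (2.13), Cyp4f18 (1.93) and Ephx1 (1.46) were higher in DRD5-/- and the secreted phospholipases Pla2g5 (−1.17) and Pla2g2e (−0.73) and Ltb4r1 (−1.04) lower. Ltb4r1 passed the M2 filter only through the DA-treated WT libraries, so nothing is read from its call.

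Pla2g4a and Ptgs2 are neighbours in the genome and lie on chromosome 1 with 139 kb and 2 annotated genes between them. Their levels did not move together with DA in M2 WT BMDMs, where Pla2g4a rose and Ptgs2 went from a mean of 3.49 to 2.7 FPKM without a call. Likeness of the 8 group means was sought among 4743 genes tested in both stimuli, with a span of at least 1 on the log2 scale. A gene under the filter in either stimulus could thus not be named. The genes that most resembled Alox5ap were Serpinb2 (Pearson's r = 0.987), Ltb4r1 (0.974) and Ets2 (0.964). For Pla2g4a they were Srgn (0.997), St3gal5 (0.997) and Prkar2b (0.996). For Hpgd they were Rmnd5a, Slc35a5 and Mapkapk3, each at 0.999 or more. For Ptgs1, Ptgs2, Ptges, Hpgds and Ltc4s the 3 nearest genes had r of 0.998 or more, and Alox5, with a span of 0.45, was not compared. These r describe 8 means that share the M1 and M2 split, and they carry no p.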

How the data were processed

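RNA of BMDMs was sequenced by the authors on a BGISEQ-500, giving 24 libraries, 3 in each of 8 groups of genotype, stimulus and DA. The authors filtered and mapped the reads with HISAT2 to the mouse genome, counted matched reads and deposited FPKM with 2 decimals for each library. The submitters' processing notes name Bowtie2 2.2.5 and GRCm38.p6, with no role given. Length and library scaling by the authors remain in every value. Low FPKM were not whole multiples of a common step (17.4% in M1 and 17.5% in M2 within 0.1 of a whole number, against 20% for evenly spread values), so read counts and depth were not recovered and no count test was run.

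FPKM were used as deposited. Genes with at least 1 FPKM in at least 3 libraries entered a limma fit (version 3.58.1, in R 4.3.3) of log2(FPKM + 1) with an intensity trend and a mean per group, done apart for the 12 M1 and the 12 M2 libraries. The 24 libraries were fitted together only for the difference in DA change between stimuli. P-values are two-sided and Benjamini-Hochberg adjusted over all genes tested. Groups and replicate numbers came from the sample titles. The fit was also run on simulated data with independent noise and few changed genes, unlike the M2 WT comparison with its many calls. Nothing about the results is read from that run. Tables and figures used Python 3.11.15, numpy 2.4.6, pandas 2.3.3 and matplotlib 3.10.9. Gene positions and upstream windows are RefSeq on GRCm38.p6.

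The 9 genes, the 84-gene pathway list and the marker lists were chosen with earlier results of these data known. Named pathway genes were, for each comparison, up to 3 called genes with the largest rise and up to 3 with the largest fall. Genes named for likeness were the 3 with the highest r among genes tested in both stimuli. Alternatives comprised median-of-ratios scaling, a smaller pseudocount (0.1), fits without the filter, without the trend, with a replicate block or with only the compared groups, other thresholds (adjusted p of 0.05, 2-fold) and leaving out each library.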

Additional observations from a re-analysis of the deposited data

Results flagged for a closer look

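The results below were picked out because the change with DA differed between genotypes or between stimuli by a test of the difference itself (limma interaction term). Values are log2 differences of DA changes, with WT minus DRD5-/- for genotypes and M2 minus M1 for stimuli, and n = 3 libraries a group.

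Between genotypes in M1 BMDMs the differences were 0.52 for Alox5ap, 1.06 for the LTB4 receptor Ltb4r1 (adjusted p = 5.73e-06), 0.97 for the reductase Ptgr1 (adjusted p = 4.15e-08), 0.46 for the prostacyclin receptor Ptgir (adjusted p = 0.000634, a call ended by 11 of 18 alternatives) and −0.37 for the PGE synthase Ptges3 (adjusted p = 1.03e-05). All 5 calls came from a comparison in which 841 genes were called.

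Between genotypes in M2 BMDMs the differences were −2.97 for Hpgd, −1.07 for Ltc4s, −0.88 for Ptges, −0.58 for Ptgs2, 0.64 for Alox5ap and 1.24 for Pla2g4a. For the pathway genes they were −2.11 for Cyp4f18 (adjusted p = 3.25e-09), −1.53 for Ephx1 (adjusted p = 7.32e-13), −1.2 for the diacylglycerol lipase Daglb (adjusted p = 9.21e-12), 1.2 for Pla2g5 (adjusted p = 6.7e-06), 0.86 for Pla2g2e (adjusted p = 0.000592, a call ended by 13 of 18 alternatives) and 0.61 for the thromboxane synthase Tbxas1 (adjusted p = 1.29e-09). Daglb went from 135 to 48.4 FPKM with DA in WT and from 161 to 134 FPKM in DRD5-/- BMDMs, and Tbxas1 from 101 to 149 FPKM in WT and from 107 to 103 FPKM in DRD5-/- BMDMs.

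Between stimuli in WT BMDMs the differences were −1.05 for Ptges and 1.59 for Pla2g4a. The value for Hpgd, −2.69, repeats its M2 fall, because Hpgd was at 0 to 0.19 FPKM in M1 and entered this fit through M2 alone. A fall of Hpgd with DA in M1 could not have been seen at that level. For the pathway genes they were −2.21 for Cyp4f18, −1.93 for Ephx1, −1.71 for Mgll, 1.41 for Pla2g5, 1.01 for Ptges3 and 0.89 for Pla2g16, all with an adjusted p of at most 4.61e-06. Ptges3 and Pla2g16 were called lower with DA in M1 WT BMDMs, Ptges3 not with median-of-ratios scaling (−0.25). In M2 WT BMDMs their means went from 56 to 90.9 FPKM, called higher, and from 3.81 to 5.43 FPKM, not called (adjusted p = 0.00382). Mgll was under 1 FPKM in all M1 libraries and Cyp4f18, Ephx1 and Pla2g5 under 2 FPKM. No weighing of causes was made for any of these differences.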

How the results depend on the processing

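The 30 called values of the 9 genes were recomputed in 626 alternatives: 566 kept direction and call, 60 lost the call (40 of them other than under the 2-fold threshold) and 0 turned direction. For the named pathway genes 896 of 970 alternatives kept direction and call, 74 lost the call (49 of them other than under the 2-fold threshold) and 0 turned. Those 49 fell on Ptges3 with DA in M1 WT, Mgst2, Pla2g15 and Pla2g16 between DA-treated M1 genotypes, Ptgir between untreated M2 genotypes, and Ptgir in M1 and Pla2g2e in M2 for the difference between genotypes. The calls lost outside the 2-fold threshold among the 9 genes were those of Ltc4s with DA in M2 DRD5-/- BMDMs and of Ltc4s and Ptges between untreated M2 genotypes, and the cause was not tested. Precision is limited by 3 libraries a group and by FPKM without counts, so the depth behind values under 1 FPKM is unknown.

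With a 2-fold threshold the counts of all genes called were 44 (DA in M1 WT), 60 (genotype in DA-treated M1), 13 (genotype in untreated M1), 626 (DA in M2 WT), 3 (DA in M2 DRD5-/-), 36 (genotype in untreated M2), 741 (genotype in DA-treated M2), 41 and 750 (difference between genotypes in M1 and M2) and 954 (difference between stimuli). Of the 9 genes it called 0 in each of the M1 comparisons, 2 with DA in M2 WT (Hpgd and Pla2g4a), 0 with DA in M2 DRD5-/-, 0 between untreated and 2 between DA-treated M2 genotypes (Hpgd and Pla2g4a), and 3 for the difference between genotypes in M2. At an adjusted p of 0.05 the counts of all genes were 202 (genotype in untreated M1), 719 (DA in M2 DRD5-/-), 895 (genotype in untreated M2) and 1836 (difference between genotypes in M1). For the genotype in untreated M1, 43 genes were called with no expression filter and 36 with no intensity trend, against 94. For DA in M2 DRD5-/-, 1 of the 9 genes was called with no filter and 1 with no intensity trend.

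Leaving out 1 library at a time gave 1181 to 1443 genes called for DA in M1 WT, 0 for DA in M1 DRD5-/-, 4587 to 4950 for DA in M2 WT, 304 to 424 for DA in M2 DRD5-/-, 36 to 94 and 470 to 564 for the genotype in untreated M1 and M2, and 1537 to 1836 and 4949 to 5334 for the genotype in DA-treated M1 and M2. For the differences it gave 626 to 774 (genotypes, M1), 4230 to 4496 (genotypes, M2) and 4817 to 5144 (stimuli). The lowest counts for untreated M1 were 36 without DRD5-/- replicate 2, 45 without WT replicate 3 and 57 without DRD5-/- replicate 3. Of the 9 genes it called 1 to 2 for DA in M1 WT, 1 to 2 for DA in M2 DRD5-/-, 4 to 5 for the genotype in untreated M2, 5 to 6 for the genotype in DA-treated M2, 3 to 4 for the difference between stimuli (Hpgd included), and the same number as with all libraries elsewhere.

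Same-numbered libraries did not deviate together (mean residual r −0.021 in M1, −0.016 in M2), so the numbers do not show a pairing. With a replicate block 1359 genes were called for DA in M1 WT, 4906 for DA in M2 WT and 5 of the 9 genes for the genotype in untreated M2, where Ltc4s lost its call (adjusted p = 0.00116).

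Levels were compared between stimuli without a test. With median-of-ratios scaling over both stimuli, M2 minus M1 in untreated WT BMDMs on the log2(FPKM + 1) scale went from −2.28 to −2.70 for Pla2g4a, 6.18 to 5.87 for Ptgs1, −6.97 to −7.36 for Ptgs2, −3.35 to −3.73 for Ptges, 1.61 to 1.18 for Hpgds, 4.76 to 4.50 for Hpgd, −0.30 to −0.75 for Alox5ap and 4.11 to 3.82 for Ltc4s.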
